A study of Mus musculus with 25 samples.

Results

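The 2 miRNAs described here, miR-143-3p and miR-145-5p, are the main mature products of a pair of neighbouring mouse miRNA genes, Mir143 and Mir145a, listed next to each other in RefSeq's GRCm38.p6 annotation. They were chosen by name, as the mouse array features called mmu-miR-143-3p and mmu-miR-145-5p, and are 2 of 1122 mouse miRNAs on the array. Both were among the 330 miRNAs that passed the detection filter. Levels were measured on 25 one-colour arrays of total RNA from snap-frozen mammary tissue of female FVB mice. The tumours came from 3 genotypes. The 8 MetTrp53 tumours arose in MMTV-Met;Trp53fl/+ mice with Cre, which carry a Met transgene under the mouse mammary tumour virus promoter and 1 floxed Trp53 allele. The 7 Met tumours arose in MMTV-Met mice, with the transgene and no floxed Trp53. The 8 Trp53 tumours arose in Trp53fl/+ mice with Cre and no Met transgene. The 2 normal samples were pools of mammary gland from wild-type FVB mice, pool 1 from multiparous and pool 2 from nulliparous animals. Met encodes the receptor for hepatocyte growth factor, and p53, the product of Trp53, is a tumour suppressor. The labels do not name the promoter that drives Cre, and a pool averages its animals, so the spread between the 2 pools is not a spread between mice.

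Both miRNAs are cut from one primary transcript. In the mouse the pair is best known from vascular and visceral smooth muscle, where serum response factor and myocardin drive its transcription and the mature miRNAs help to keep the cells in a contractile state. In the mammary gland the pair is known from contractile myoepithelial cells and from stroma, and miR-143 is also expressed by adipocytes. In human colon cancer cells p53 promotes the processing of both precursors. The array measured no messenger RNA, so no smooth muscle or myoepithelial transcript was available to check the cell of origin. In whole tissue, fewer cells of a type and less RNA per cell cannot be told apart.

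Levels are given as the log2 of the scaled signal, which is the scanner's background-subtracted intensity divided by a reference intensity of the same array, the 75th percentile of probes detected everywhere, and multiplied by 572.5. A floor of 12.1 intensity units, a level of 3.60, was set under dim signals before log2 was taken. Each miRNA had 40 spots per array, 20 for each of 2 probes. No spot of either miRNA was saturated. Across the 25 arrays the scanner software detected between 220 and 334 mouse miRNAs, the reference intensity varied 3.26-fold, and the number of spots and arrays limits the precision. Over the tested miRNAs, which are not independent of each other, Pearson's r ranged from 0.67 to 0.98 between arrays and was 0.98 for the pair of pools.

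miR-143-3p was detected on every array, with 30 to 40 of its 40 spots well above background in the tumours and all 40 in both pools. miR-145-5p was dimmer. All 40 of its spots were well above background in both pools, against 0 to 40 in the tumours, and at least 20 in 6 tumours (1 MetTrp53, 4 Met and 1 Trp53). The scanner software called miR-145-5p detected in 5 of 8 MetTrp53, 7 of 7 Met and 3 of 8 Trp53 tumours, and in both pools. In 12 of the 23 tumours both of its probes lay at the floor, so its log2 level there is only an upper bound on a low signal. The opposite arms of the same hairpins, miR-143-5p and miR-145-3p, were detected on no array, with at most 1 spot of 40 well above background.

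Both miRNAs were lower in every tumour than in either pool of normal mammary gland. The level of miR-143-3p in the 23 tumours ran from 4.16 through a median of 5.03 to 7.05, against 7.49 in normal pool 1 and 7.44 in normal pool 2. The level of miR-145-5p ran from the floor of 3.60, which was also its median, to 5.12 in the tumours, against 5.43 and 5.74 in the pools. The groups did not overlap for either miRNA. Of the 330 miRNAs tested, 7.58% were lower in every tumour than in both pools.

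Without floor or logarithm, the scaled signal of miR-143-3p averaged 46.6 intensity units in the tumours and 181.3 in the pools, so tumours held 25.7% of the normal mean, or 3.89-fold less. Single tumours ranged from 10.1% to 74.6% of the normal mean. For miR-145-5p the averages were 10.4 in the tumours and 49.7 in the pools, and the mean of both probes lay under the floor of 12.1 in 17 tumours. With those counted at the floor, tumours held at most 28.6% of the normal mean, or at least 3.50-fold less, and the highest tumour held 71.3%. An exact two-sided permutation test of the difference in measured mean signal over the 300 possible splits gave p = 0.00333 for each miRNA, the smallest p that 23 tumours against 2 pools can give.

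In the limma fit over all 330 miRNAs, the mean of the 3 tumour genotypes minus normal was -2.16 for miR-143-3p on the log2 scale (SE 0.49, Benjamini-Hochberg adjusted p = 0.00315). It was -1.79 for miR-145-5p (SE 0.23, adjusted p = 5.07e-06). The fit called 42 miRNAs, 12.7% of those tested, 26 of them lower (7.88%) and 16 higher (4.85%). Scaling by the percentile over all mouse probes instead turned this split into 36 lower and 5 higher. In order of the log2 difference from the lowest, miR-143-3p stood 10th and miR-145-5p 15th of 330. The 160 miRNAs detected on all arrays had a median difference of 0.34, and relative to that median miR-143-3p was at -2.50 and miR-145-5p at -2.13.

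The floor sets part of the size and of the error for miR-145-5p. Of its 2 probes, the dimmer was at the floor in 20 tumours and gave a difference of -1.56, and the brighter was at the floor in 12 tumours and gave -2.02. A floor 2 times higher reduced the difference of miR-145-5p to -0.96 (adjusted p = 9.42e-09), and the scanner's summed signal per miRNA gave -3.21 (adjusted p = 0.00446). With normexp background correction the difference of miR-145-5p was -0.45 and no longer passed (adjusted p = 0.281), and that of miR-143-3p was -1.12 (adjusted p = 0.00938). That correction adds an offset of 50 to every spot, which narrows log2 differences between dim signals. The 2 probes of miR-143-3p, neither at the floor in any tumour, gave -2.16 and -2.15.

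The call for miR-143-3p rested on both normal samples. Without pool 1 its difference was -2.13 with an adjusted p of 0.0836 in the limma fit, and without pool 2 it was -2.18 with an adjusted p of 0.0548. The call for miR-145-5p held without either pool (largest adjusted p 0.0016). Pool 1 was on slide 1 and pool 2 on slide 3. Within slide 1, tumours minus normal was -2.38 for miR-143-3p and -1.74 for miR-145-5p (4 tumours, 1 pool), and within slide 3 it was -1.83 and -1.82 (4 tumours, 1 pool).

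**Figure D1:**
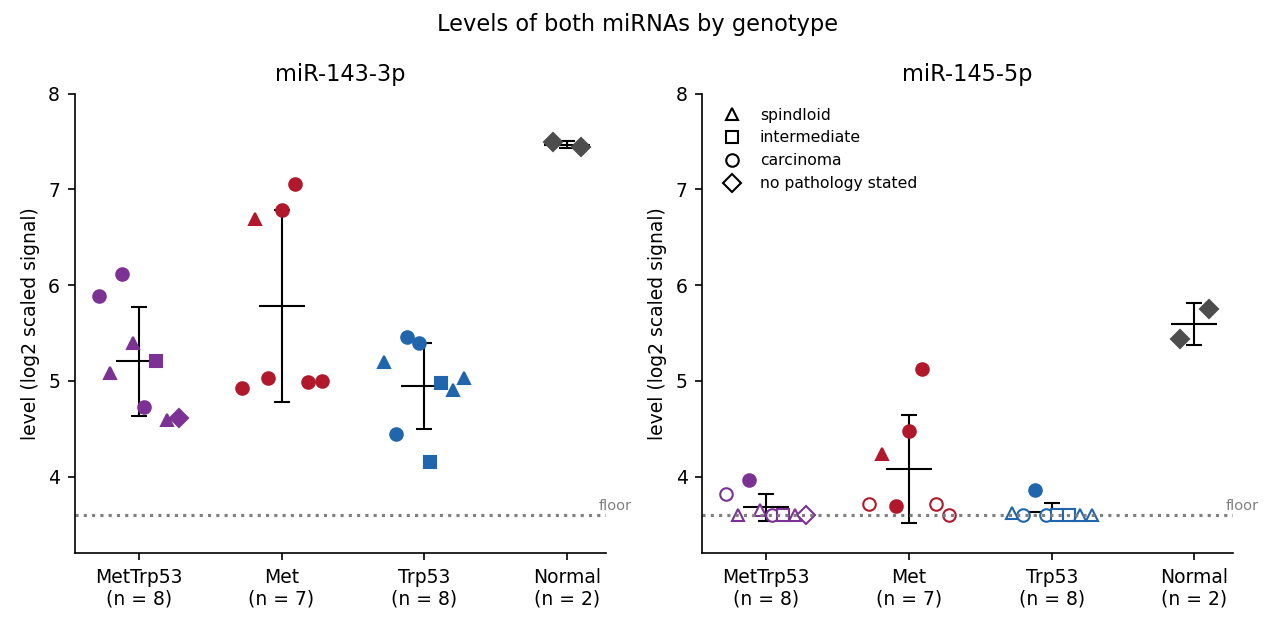
Level of miR-143-3p (left) and miR-145-5p (right) on each array, as log2 of the scaled signal, by group. Points are single arrays with shape by pathology, filled where at least 20 of the 40 spots were well above background, horizontal bars are means, error bars are SD, and the dotted line is the floor at 3.60. All 23 tumours lie below both normal pools in each panel, and 12 tumours lie on the floor for miR-145-5p.

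Each genotype was also set against the pools. The 3 comparisons share the same 2 pools and are not independent of each other. In MetTrp53 tumours miR-143-3p averaged 5.20 ± 0.57 (SD, n = 8), in Met tumours 5.78 ± 0.999 (SD, n = 7) and in Trp53 tumours 4.94 ± 0.45 (SD, n = 8), against 7.47 ± 0.03 in the normal pools (SD, n = 2). The log2 difference from normal was -2.27 in MetTrp53 (SE 0.52, limma adjusted p = 0.00412), -1.69 in Met (SE 0.53, adjusted p = 0.0395) and -2.52 in Trp53 tumours (SE 0.52, adjusted p = 0.00161). Of all miRNAs tested these comparisons called 14.5% in MetTrp53 (8.18% lower and 6.36% higher), 12.1% in Met (8.18% lower and 3.94% higher) and 12.4% in Trp53 tumours (7.58% lower and 4.85% higher). The share of miRNAs below both pools in every tumour of the genotype was 13% for MetTrp53, 10.3% for Met and 13.6% for Trp53.

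miR-145-5p averaged 3.68 ± 0.14 in MetTrp53 (SD, n = 8), 4.08 ± 0.56 in Met (SD, n = 7) and 3.63 ± 0.09 in Trp53 tumours (SD, n = 8), against 5.59 ± 0.22 in the pools (SD, n = 2). Its difference from normal was -1.91 in MetTrp53 (limma adjusted p = 6.5e-06), -1.51 in Met (adjusted p = 0.000243) and -1.95 in Trp53 tumours (adjusted p = 4.45e-06), with an SE of 0.25 in each. As a share of the normal mean signal, MetTrp53 tumours held 22.3% of miR-143-3p, Met tumours 38.1% and Trp53 tumours 18.2%. With signals under the floor counted at it, the shares of miR-145-5p were at most 25.5% in MetTrp53, 36.2% in Met and 24.9% in Trp53 tumours. Both miRNAs passed the test as lower in all 3 genotypes. With normexp correction miR-145-5p passed in none, at -0.53 in MetTrp53, -0.36 in Met and -0.46 in Trp53 tumours (limma adjusted p = 0.247, 0.404 and 0.267). In Met tumours it also missed the threshold with the summed signal (-2.12, adjusted p = 0.101) and with only the groups compared in the fit (-1.51, adjusted p = 0.0755).

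The difference of miR-143-3p between Met tumours and normal missed the threshold without either pool (adjusted p = 0.319 without pool 1 and 0.223 without pool 2, limma). It also missed it without Met 1, Met 3, Met 6 or Met 7, with adjusted p values of 0.0668, 0.0664, 0.0593 and 0.0696. With slide as a block it was -1.60 (adjusted p = 0.0837) and with scan date as a block -1.61 (adjusted p = 0.0674). The call was also lost with normexp (-0.89, adjusted p = 0.0826), with no detection filter (adjusted p = 0.131) and with only the groups compared (adjusted p = 0.248). For MetTrp53 tumours the call of miR-143-3p was lost without pool 1 (adjusted p = 0.0738) or pool 2 (adjusted p = 0.0507). For Trp53 tumours it held with every single array left out.

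**Figure D2:**
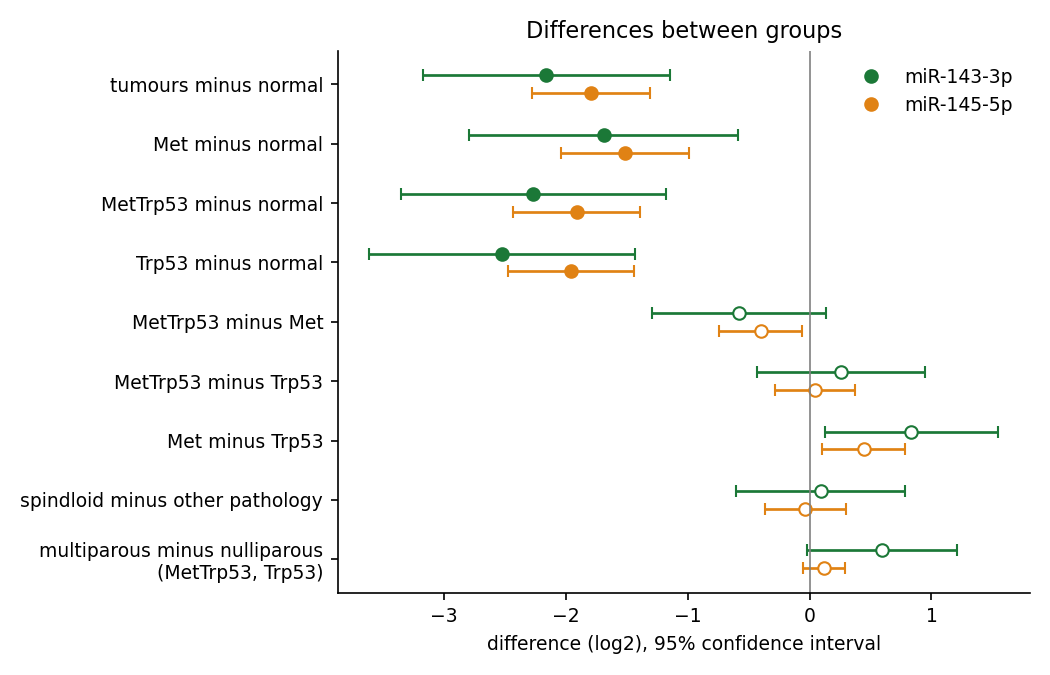
Differences between groups on the log2 scale, with 95% confidence intervals from limma, for miR-143-3p and miR-145-5p. Filled points passed an adjusted p of 0.05 over 330 miRNAs. The 4 comparisons with normal are filled for both miRNAs, from -1.51 to -2.52, and those among tumours are open.

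Among the tumours, the 7 Met tumours fell into a low and a high set for miR-143-3p. Met 1, Met 3, Met 6 and Met 7 had levels of 4.93, 5.03, 4.99 and 5.0. Met 2, Met 4 and Met 5 had 6.68, 6.79 and 7.05. A gap of 1.66 separates the sets, and the high set spans 3 slides and the low set 4. The low set holds the 3 solid nodular carcinomas and an adenocarcinoma, and the high set is a spindloid tumour, an adenosquamous carcinoma and a scirrhous adenocarcinoma. miR-145-5p followed the same order of sets, with 3.72, 3.69, 3.71 and 3.60 in the low set and 4.23, 4.47 and 5.12 in the high set. The sets were noticed in these values and were not tested.

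The levels of the other genotypes reached less high. MetTrp53 tumours ran from 4.60 through a median of 5.14 to 6.12 for miR-143-3p, and Trp53 tumours from 4.16 through a median of 5.0 to 5.46. For miR-145-5p the highest level was 3.97 in MetTrp53 and 3.86 in Trp53 tumours, and the median was the floor in both. All 3 Met tumours of the high set lay above every MetTrp53 and Trp53 tumour for both miRNAs, and the 4 of the low set lay within the range of the other genotypes.

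No difference between genotypes passed the threshold for either miRNA. MetTrp53 minus Met was -0.58 for miR-143-3p (SE 0.34, 95% interval -1.29 to 0.13, limma adjusted p = 0.38) and -0.40 for miR-145-5p (SE 0.16, interval -0.74 to -0.06, adjusted p = 0.18). MetTrp53 minus Trp53 was 0.26 for miR-143-3p (SE 0.33, interval -0.43 to 0.94, adjusted p = 0.928) and 0.04 for miR-145-5p (SE 0.16, interval -0.28 to 0.37, adjusted p = 0.974). Neither of these 2 pairs had any of 330 miRNAs called (0%), although limma gave 61 and 23 miRNAs an unadjusted p under 0.05. The count for MetTrp53 minus Met moved with single arrays, to 41 without Met 2, 26 without MetTrp53 3, 11 without MetTrp53 5, 10 without Trp53 3 and 1 without Trp53 2. In order of the mean, Met tumours stood above MetTrp53 and these above Trp53 tumours for both miRNAs. None of these neighbours differed past the threshold. The mean of miR-143-3p in Met tumours includes the high set of 3, at 6.68 to 7.05. Its median was 5.03 in Met, 5.14 in MetTrp53 and 5.0 in Trp53 tumours, which is not the order of the means.

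Met minus Trp53 was the widest gap between the means of the genotypes. It was 0.84 for miR-143-3p (SE 0.34, interval 0.12 to 1.55, limma adjusted p = 0.123) and 0.44 for miR-145-5p (SE 0.16, interval 0.11 to 0.78, adjusted p = 0.0832). The same comparison called 10% of all miRNAs tested, 4.55% higher and 5.45% lower. For miR-145-5p the call depended on how dim signals were treated. Its Met minus Trp53 difference was 1.18 with a floor 4 times lower (adjusted p = 0.0342), 1.73 with the summed signal (adjusted p = 0.0303) and 1.003 in a fit to the authors' deposited log2 values (adjusted p = 0.0189). It was 0.36 after quantile normalisation (adjusted p = 0.0422) and 0.52 without Met 7 (adjusted p = 0.0433). It was 0.10 with normexp correction (adjusted p = 0.906) and 0.09 with a floor 2 times higher (adjusted p = 0.431). The difference of miR-143-3p was 0.35 with normexp correction (adjusted p = 0.466).

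The moderated F-test over the 3 genotypes gave an adjusted p of 0.265 for miR-143-3p and 0.139 for miR-145-5p in limma, and called 5.76% of miRNAs. Within slides, Met minus Trp53 for miR-143-3p was 0.11, 0.43, 2.63, 1.08 and -0.03 on slides 1 to 5, each from 1 or 2 tumours a genotype. Parity and pathology are both entangled with genotype in these tumours. The 6 Met tumours with stated parity were all from multiparous mice. Met tumours were 6 carcinomas and 1 spindloid tumour, and Trp53 tumours were 3 carcinomas, 3 spindloid and 2 intermediate. Met minus Trp53 called 33 miRNAs, but 7 with spindloid and intermediate pathology as covariates. With parity as a covariate in the tumours that state it, Met minus Trp53 was 0.62 for miR-143-3p (limma adjusted p = 0.498). It was 0.41 for miR-145-5p (adjusted p = 0.395). Epithelial miR-200 family miRNAs also differed between these genotypes, 3 of 5 being higher in Met than in Trp53 tumours with a list median of 3.38, beside a median of 0.01 over all miRNAs tested. The summed signal of the family, taken without the floor, ran from 17.0 to 5916 in Met and from 0.744 to 2637 in Trp53 tumours. Sums under 12.1, the floor for a single miRNA, are not read as differences, here and for the lists below. In spindloid minus other pathology the 5 ran from -3.20 to -2.11, and none was called. Of 10 mesenchymal miRNAs, 2 were lower in Met than in Trp53 tumours, miR-125b-5p at -1.52 and miR-199b-5p at -2.16 (list median -1.12), with a summed signal of 724.7 to 6948 in Met and 1804 to 8362 in Trp53 tumours. Of 5 leukocyte miRNAs, only miR-223-3p was called, lower at -1.64 (limma adjusted p = 0.0417), and the list median was 0.06. Of the others, miR-155-5p was at -0.94, miR-142-3p at 0.06, miR-142-5p at 0.49 and miR-150-5p at 0.62. The summed leukocyte signal was 134.8 to 1838 in Met and 423.9 to 1938 in Trp53 tumours. The part of these lists in the levels of miR-143-3p and miR-145-5p was not tested.

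Pathology was stated for 22 tumours, and the levels of both miRNAs in spindloid tumours lay within the range of the others. The labels call 7 tumours spindloid (3 MetTrp53, 1 Met, 3 Trp53), 3 intermediate (1 MetTrp53, 2 Trp53), and 12 by a carcinoma type. In spindloid tumours, miR-143-3p ran from 4.60 through a median of 5.08 to 6.68, and in carcinomas from 4.44 through 5.21 to 7.05. The 3 intermediate tumours had levels of 5.21 in MetTrp53 6, 4.16 in Trp53 5 and 4.98 in Trp53 6. For miR-145-5p the highest level was 4.23 in spindloid tumours and 5.12 in carcinomas, and all 3 intermediate tumours lay at the floor.

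With genotype as a covariate, spindloid minus all other stated pathology was 0.09 for miR-143-3p (SE 0.33, 95% interval -0.60 to 0.78, limma adjusted p = 0.963). It was -0.03 for miR-145-5p (SE 0.16, interval -0.37 to 0.30, adjusted p = 0.963). Of the 330 miRNAs the comparison called 0%, and limma gave 41 an unadjusted p under 0.05. The direction for miR-143-3p turned on Met 2, the only spindloid Met tumour, and was -0.14 without it. Within MetTrp53 tumours the 3 spindloid ones averaged 5.02 for miR-143-3p and the 3 carcinomas 5.58, and within Trp53 tumours the 3 spindloid ones averaged 5.04 and the 3 carcinomas 5.10.

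**Figure D3:**
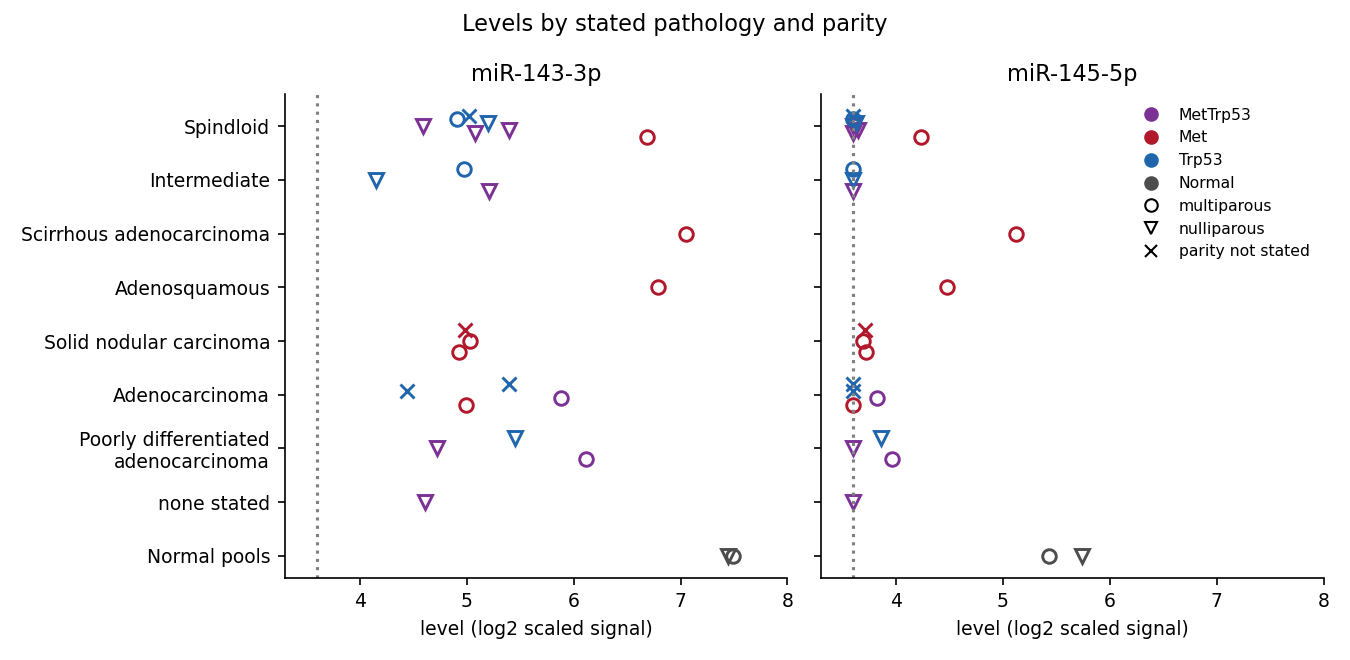
Level of miR-143-3p (left) and miR-145-5p (right), as log2 of the scaled signal, by the pathology the labels state. Colour gives the genotype, symbols the parity, and the dotted line the floor at 3.60. The scirrhous, the adenosquamous and 1 spindloid tumour, all Met, reach 6.68 to 7.05 for miR-143-3p, and the 6 other spindloid tumours lie between 4.60 and 5.39.

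Parity could be compared within MetTrp53 and Trp53 tumours only. The 2 MetTrp53 tumours from multiparous mice, both carcinomas, had miR-143-3p levels of 5.88 and 6.12, above all 6 from nulliparous mice, which had 5.08, 5.39, 4.73, 5.21, 4.60 and 4.61. The same 2 tumours had the highest miR-145-5p of their genotype, 3.82 and 3.97. Among Trp53 tumours the 2 from multiparous mice averaged 4.94 for miR-143-3p, and the 3 from nulliparous mice also averaged 4.94, with values from 4.16 to 5.46. Over both genotypes, multiparous minus nulliparous was 0.59 for miR-143-3p (SE 0.28, 95% interval -0.02 to 1.21, limma adjusted p = 0.805) and 0.12 for miR-145-5p (SE 0.08, interval -0.06 to 0.29, adjusted p = 0.805). Of the 330 miRNAs this comparison called 0%, and limma gave 16 an unadjusted p under 0.05. The multiparous and the nulliparous normal pool, single arrays on different slides, had 7.49 and 7.44 for miR-143-3p and 5.43 and 5.74 for miR-145-5p.

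The titles give the same number to the members of 2 pairs of Trp53 tumours, and the labels do not say whether it marks one animal. Trp53 2 and Trp53 3 differed by 1.01 for miR-143-3p, and Trp53 4 and Trp53 8 by 0.37, against a range of 4.16 to 5.46 over the 8 Trp53 tumours.

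The levels of the 2 miRNAs were correlated over the tumours. Their log2 levels correlated at Pearson r = 0.87 over 23 tumours (permutation p = 1e-05, two-sided, the smallest that 100000 resamples can give) and at Spearman rho = 0.74 (permutation p = 0.00015). Without Met 5 and Met 4, the tumours farthest from the median of miR-143-3p, r was 0.84 (n = 21, permutation p = 2e-05). Deviations from the genotype means gave r = 0.83, and deviations from the slide means r = 0.87 (permutation p = 1e-05 each). The scaled signal without floor or logarithm, where miR-145-5p keeps its order among dim tumours, gave r = 0.94 and rho = 0.85 (permutation p = 1e-05 each). With a floor 2 times higher r was 0.62 (permutation p = 0.00014).

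Within genotypes r was 0.89 in MetTrp53 (n = 8, permutation p = 0.00289), 0.92 in Met (n = 7, permutation p = 0.00377) and 0.49 in Trp53 tumours (n = 8, permutation p = 0.178). The rho values within genotypes were 0.87 (p = 0.00602), 0.68 (p = 0.11) and 0.65 (p = 0.108) by the same permutation test. The Met tumours fall into the low and the high set described above, and each set is too small for a value of its own. In the Trp53 group 6 of the 8 tumours lay at the floor for miR-145-5p, which leaves little range to correlate. These p values come from a family of 16 correlations of the same pair of miRNAs and were not adjusted, and the 16 share their tumours.

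**Figure D4:**
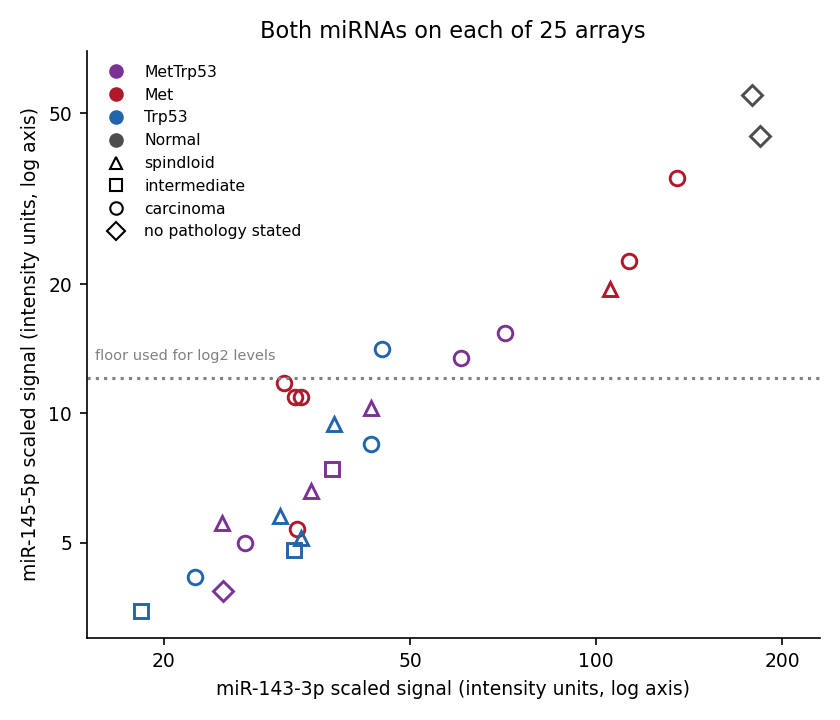
Scaled signal without floor of miR-145-5p (vertical, log axis) against miR-143-3p (horizontal, log axis), in intensity units, 1 point an array. Colour gives the group, shape the pathology, and the dotted line the floor of 12.1. The points run from the dim Trp53 5 (18.4 and 3.46) through Met 5 (135.2 and 35.4) to the normal pools (183.9 and 44.2, and 178.6 and 55.2).

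Whether the 2 miRNAs changed to a different extent could not be settled. The level of miR-143-3p minus that of miR-145-5p on the same array averaged 1.503 ± 0.47 in the tumours (SD, n = 23) and 1.88 ± 0.25 in the pools (SD, n = 2), a difference of -0.37 (exact two-sided permutation p = 0.287). The sign depended on the floor, since a floor 4 times lower gave 0.36 (exact permutation p = 0.213) and a floor 2 times higher gave -1.17 (exact permutation p = 0.03). The summed signal gave 1.05 (exact permutation p = 0.0667), the authors' deposited log2 values 0.30 (exact permutation p = 0.253) and normexp correction -0.68 (exact permutation p = 0.00667).

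The miRNAs whose levels most resembled those of miR-143-3p over the 23 tumours, among 159 others detected on all arrays, were miR-26b-5p (r = 0.61), miR-3470a (0.56), let-7i-5p (0.53), miR-3963 (0.50) and miR-342-3p (0.48). For miR-145-5p the nearest was miR-143-3p itself at 0.87, followed by miR-3470a (0.77), miR-26b-5p (0.67), miR-3473 (0.58) and miR-3963 (0.57). All these values share the same tumours and the same scaling per array. miR-145-5p was not among the 159, and other miRNAs detected on only some arrays were not compared. The nearest of the 159 to miR-143-3p, at 0.61, stood below its partner at 0.87. Of the other miRNAs named here, miR-26b-5p fell in the tumours (log2 difference -1.13, SE 0.30, limma adjusted p = 0.0111). Its level was 6.82 to 8.62 in the tumours against 8.38 and 8.79 in the pools. The other 5 did not pass against normal, with adjusted p values from 0.284 to 0.81.

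Several cell type lists moved in the same direction as miR-143-3p and miR-145-5p between tumours and normal pools. Of the 5 skeletal muscle miRNAs, miR-206-3p and miR-499-5p passed the detection filter only through the pools, so a lower value in the tumours was fixed by that filter and they are not counted. The other 3, miR-1a-3p at -6.90, miR-133a-3p at -7.12 and miR-133b-3p at -7.82, fell, beside a median of 0.14 over all miRNAs tested. The summed scaled signal of all 5 ran from 1.04 to 3122 in the tumours and was 16224 and 22081 in pools 1 and 2. The highest muscle sums among the tumours were 3122 in Trp53 1, 3111 in MetTrp53 5 and 1739 in Trp53 4, whose miR-143-3p levels were 5.20, 4.73 and 5.40. Next came the 3 Met tumours of the high set, with 1326 in Met 4, 306 in Met 2 and 64.0 in Met 5. The median over the 23 tumours was 6.42. Among Met tumours, the high set also had more summed endothelial signal than the low set (469 to 1187 against 184.7 to 319.2). The same held for leukocyte signal (745.9 to 1838 against 134.8 to 458.4). The miR-200 family sum of the high set was lower (17.0 to 2056 against 2444 to 5916). The sets overlapped for the mesenchymal, adipose and basal epithelial lists. These comparisons were noticed in these values and were not tested.

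Of 3 adipose miRNAs, 2 passed as lower. The other, miR-193b-3p, was at -2.09, which is the list median, and did not pass (SE 0.91, limma adjusted p = 0.155). miR-378-3p, which is abundant in adipocytes, was at -3.48 and miR-365-3p at -1.64, and the list's summed signal was 131.1 to 918 in the tumours against 1050 to 2428 in the pools. The 2 endothelial miRNAs are arms of the same hairpin and not separate markers, and miR-126-5p was detected in only 12 of 23 tumours. Both fell, with log2 differences of -1.69 for miR-126-3p and -0.40 for miR-126-5p (list median -1.05). Their summed signal was 184.7 to 1446 in the tumours against 1751 to 2192 in the pools. The part of muscle, fat and vessel RNA in the lower levels of miR-143-3p and miR-145-5p was not tested.

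The remaining lists held few calls. Of 10 tested mesenchymal miRNAs 1 fell, miR-10b-5p at -2.42 (SE 0.73, limma adjusted p = 0.0275), and the list median was -0.55. The 9 members that did not pass had log2 differences from -1.47 for miR-99a-5p to 0.31 for miR-214-3p. The summed mesenchymal signal was 724.7 to 9846 in the tumours against 4936 to 6777 in the pools. No basal epithelial miRNA of 2 passed, with miR-205-5p, a marker of basal and myoepithelial cells, at -1.99 (SE 1.33, limma adjusted p = 0.4) and miR-203-3p at -0.95. By genotype, 1 of the 2 passed as lower in Trp53 tumours (list median -2.31), where 12.4% of all miRNAs tested were called. None passed in MetTrp53 (list median -1.54) or Met tumours (-0.56). The summed basal signal was 0.322 to 670 in the tumours against 235.4 to 241.9 in the pools. None of 5 miR-200 family miRNAs passed (list median -0.72, summed signal 0.744 to 5916 in the tumours against 604.5 to 690 in the pools). Of 5 leukocyte miRNAs, miR-150-5p passed the detection filter only through the pools and is not counted. None of the others passed (list median of all 5 0.10, summed signal 134.8 to 1938 in the tumours against 365.9 to 1058 in the pools). The counts over all tumours stand beside the 12.7% called among all miRNAs tested.

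**Figure D5:**
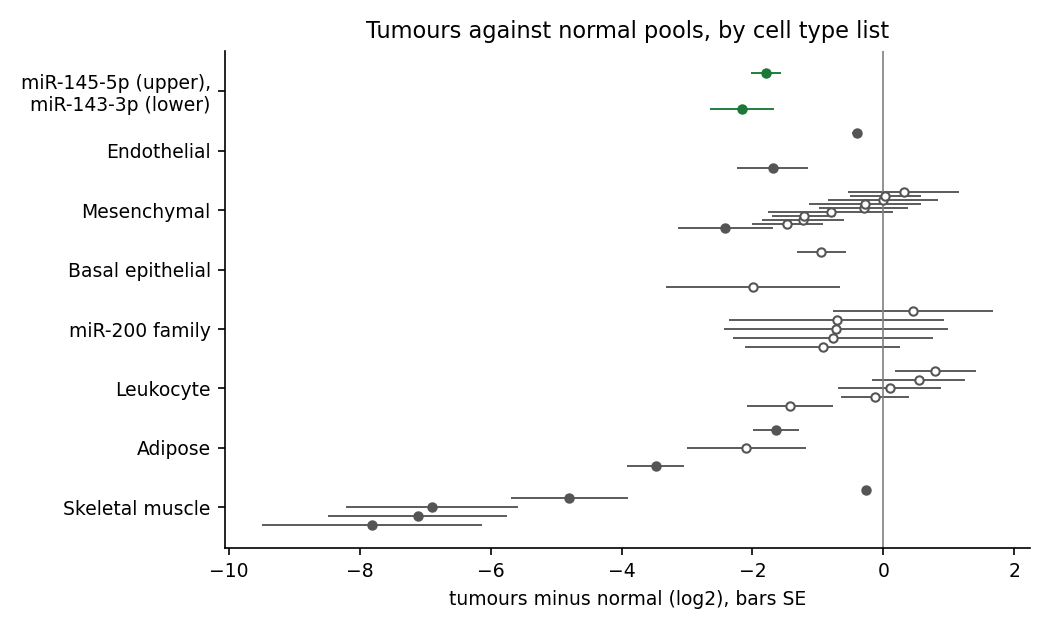
Tumours minus normal on the log2 scale, with SE bars, for miR-143-3p and miR-145-5p (top) and for each tested miRNA of 7 cell type lists. Filled points passed an adjusted p of 0.05 over 330 miRNAs. The pair lies at -2.16 and -1.79, the 3 skeletal muscle miRNAs that are counted from -7.82 to -6.90, and most mesenchymal miRNAs are open. Skeletal muscle miR-206-3p and miR-499-5p and leukocyte miR-150-5p are drawn too. They passed the detection filter only through the pools and are not counted.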

How the data were processed

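The deposited spot intensity values of 25 one-colour arrays are, per the file headers, output of Agilent's Feature Extraction software, version 10.7.3.1, which subtracted the background. They carry no scaling from one array to another. A second deposited file gives log2 values for each spot, and the submitters' processing notes name RMA without a role. Its column medians lay between 1.72 and 1.91, its columns correlated with the log2 signal of the same spots at 0.99 or more, and its centring is unknown.

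The processed signal was divided by each array's 75th percentile over the 221 probes detected on all arrays. Spots not marked as outliers had been averaged per probe beforehand. Probe means that came to less than 0.0212 after the division were raised to this floor. Then log2 was taken of each probe mean, and the probes of a miRNA were averaged. Both miRNAs have 2 probes. A miRNA was tested if the scanner software detected it on at least 7 tumour arrays or both pools, which kept 330. Those kept only through the pools lean towards lower values in tumours.

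limma 3.58.1 (R 4.3.3, lmFit and eBayes) was fitted over all 330 with Benjamini-Hochberg adjustment and a threshold of 0.05. miRNAs at the floor on every array of a fit carry no spread, so they were kept out of its variance estimate and counted as tested and not called. There was 1 such miRNA over all arrays, 5 for pathology and 11 for parity. The fits were tested on simulated data with Gaussian noise and no floor, so that test does not cover miRNAs held at the floor, such as miR-145-5p. Permutation tests were two-sided, exact for differences and with 100000 resamples for correlations. The alternative background correction used normexp with an offset of 50 on the median spot signal, in place of the mean spot signal that was planned.

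The labels gave groups, pathology and parity. Replicate numbers follow accession order. The labels do not say that each tumour came from its own animal, so the p-values rest on a spread between samples that may be partly technical. The members, lists and tests were chosen with earlier results of these data known. The miRNAs named were the pair, their opposite arms, the 5 most correlated with each over the tumours, and the members of the 7 lists.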

Additional observations from a re-analysis of the deposited data

Results flagged for a closer look

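Of 11 groups of 4 to 10 tumours examined, 3 held a tumour far from the others by Dixon's test at the 95% level, which chance does in about 1 in 20 groups. Among the 7 spindloid tumours, Met 2 stood apart for miR-143-3p, with a level of 6.68, and for miR-145-5p, with 4.23. Among the 8 Trp53 tumours, Trp53 3, a poorly differentiated adenocarcinoma, stood apart for miR-145-5p with 3.86, where 6 of the other tumours lay at the floor. The flags for miR-145-5p compare 1 tumour with others that the floor holds at one value.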

How the results depend on the processing

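With all arrays kept, the tumour minus normal difference of miR-143-3p kept its direction and call in 14 of 14 alternatives (-2.53 to -1.12), and that of miR-145-5p in 12 of 13 (-3.21 to -0.45). No paired analysis was run, since the labels define no pairs of tumour and normal samples. miRNAs detected on all arrays exclude miR-145-5p.

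With normexp correction, miR-145-5p missed the threshold against normal in all tumours (-0.45), MetTrp53 (-0.53), Met (-0.36) and Trp53 tumours (-0.46), and miR-143-3p did in Met tumours (-0.89). miR-143-3p in Met tumours against normal also missed it with no detection filter (-1.69), slide as a block (-1.60), scan date as a block (-1.61) and only the groups compared (-1.69). miR-145-5p in Met tumours against normal missed it with the summed signal (-2.12) and only the groups compared (-1.51). Met minus Trp53 for miR-145-5p passed after quantile normalisation (0.36), with the summed signal (1.73), with the authors' values (1.003) and with a floor 4 times lower (1.18), a floor chosen after seeing the data. The genotype F-test of miR-145-5p passed with the authors' values (adjusted p = 0.0359). The causes were not tested.

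Some differences between tumours that did not pass changed sign. MetTrp53 minus Trp53 was -0.070 for miR-145-5p with normexp, -0.024 for miR-143-3p with the percentile over all probes and -0.0090 for miR-145-5p after quantile normalisation. Spindloid minus other for miR-143-3p was -0.085 with normexp, -0.0024 without intermediate tumours, -0.14 in Trp53-deleted tumours alone and -0.074 with no genotype term. For miR-145-5p it was 0.050 with the percentile over all probes, 0.034 after quantile normalisation, 0.017 with the authors' values and 0.045 with slide as a block. The within-array difference was -0.68 with normexp and -1.17 with a floor 2 times higher, which passed, and 1.05 with the summed signal, 0.30 with the authors' values and 0.36 with a floor 4 times lower. Of the 5 most similar miRNAs, 1 remained for miR-143-3p and 2 for miR-145-5p over all 25 arrays, and 3 for each after quantile normalisation.

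Leaving out each array in turn, tumours minus normal ranged from -2.23 to -2.11 for miR-143-3p, Met minus normal from -1.90 to -1.54 and MetTrp53 minus normal from -2.40 to -2.18. Met minus Trp53 of miR-145-5p ranged from 0.27 to 0.52. Spindloid minus other ranged from -0.14 to 0.21 for miR-143-3p, and for miR-145-5p from -0.086 to 0.0045, the positive value being without Met 5. Averaging title numbers was not run for parity. The count of miRNAs called in tumours against normal was 42, but 15 without pool 1, 25 without pool 2 and 26 of the 160 detected on all arrays. Met minus Trp53 called 33, but 62 without Met 2, 18 to 20 without Met 3, Met 6, Trp53 1 or Trp53 5, 21 with normexp, 17 with no detection filter, 10 with parity and 7 with spindloid and intermediate pathology as covariates. MetTrp53 minus Met called 0, but 41 without Met 2, 26 without MetTrp53 3, 16 with the authors' values, 13 with the summed signal, 8 with title numbers averaged, 7 with a floor 4 times lower and 6 of those 160. The F-test called 19, but 32 with the authors' values or a floor 4 times lower, 50 without Met 2, 35 without MetTrp53 3, 29 without Met 7, 10 with no filter, 1 with parity and 0 with pathology as covariates. Against normal, Met tumours had 40 calls, but 26 with normexp, 25 with no filter, 18 with only the groups compared, 11 without pool 1 and 22 without pool 2. MetTrp53 tumours had 48, but 30 with normexp, 30 of those 160, 14 without pool 1 and 28 without pool 2. Trp53 tumours had 41, but 21 of those 160, 18 without pool 1 and 26 without pool 2. Spindloid minus other called 0, but 16 without intermediate tumours and 6 with normexp. Dim signal limits miR-145-5p.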
